A study of Oncorhynchus mykiss with 9 samples.

Results

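The data compare splenic IgM+ B cells from leukocyte cultures stimulated with TNP-KLH, the hapten trinitrophenyl carried on keyhole limpet hemocyanin, with the same cells from unstimulated control cultures. The comparison took the raw count columns TNP-KLH 1 to 3 and control 1 to 3, which are 6 of the 9 libraries of the series, and every gene with at least 5 reads in at least 1 of the 9 libraries, which left 31691 of 46585 genes. All libraries came from the spleen of healthy female rainbow trout (Oncorhynchus mykiss) of 50 to 70 g, and none carried a genetic change. Whole leukocyte suspensions were kept for 24 h with TNP-KLH, without antigen, or with TNP-LPS, the same hapten on bacterial lipopolysaccharide, and IgM+ cells were then isolated by FACS for RNA sequencing. The IgM+ cells therefore shared their culture with the other splenic leukocytes. The sample labels give the antigen at 5 mg/ml, while the study's methods give the same figure per ml in micrograms. The 3 libraries of a group are not stated to be separate fish, so p-values measure a spread between libraries and not between known animals. In the fit that pairs libraries by number, described below, this is the spread left after differences between numbers are removed. Both fits estimate it over all 9 libraries. Total counts were between 8367432 and 11278701 in the TNP-KLH libraries, and between 9228595 and 12164154 in the control libraries.

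A B cell takes up protein antigen through its surface immunoglobulin, which signals through the paired CD79 chains, the kinases Lyn and Syk and the adaptor BLNK. Antibody responses to protein antigens such as hemocyanin need T cell help in mammals, given through CD40 and other receptors of the TNF receptor family, whose tails bind TRAF adaptors and activate NF-kB, and through cytokines whose receptors signal by JAK kinases and STAT factors. Both pathways switch on their own inhibitors, among them the SOCS proteins, CISH, the NF-kB inhibitor alpha and TNFAIP3. Activated mammalian lymphocytes also raise Myc and the machinery for making ribosomes, amino acyl-tRNAs and nucleotides before they divide. Salmonids duplicated their genome, so most of these functions are carried by several gene copies, which are named here by their identifiers. Reads shared by near-identical copies, or by overlapping genes, may have been divided between them.

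The libraries were checked against the label first. Levels are given in CPM, read counts relative to the scaled size of each library, always in the order of libraries 1, 2 and 3. B cell markers were abundant and summed to 3102, 3296 and 3321 CPM with TNP-KLH, against 3877, 4520 and 4558 CPM in control. Markers of other cells were also read. The T and NK cell markers summed to 69.9, 159.9 and 32.5 CPM with TNP-KLH, against 79.4, 196 and 56.8 CPM in control, and the CD3 epsilon chain (GSONMG00068288001) stood at 6.76, 20.6 and 0.981 CPM with TNP-KLH, against 6.37, 19.5 and 1.4 CPM in control. Erythrocyte markers, mainly hemoglobins, reached 228, 2382 and 42.5 CPM with TNP-KLH, against 261, 6917 and 100.5 CPM in control, and thrombocyte markers 70.1, 106 and 55.8 CPM with TNP-KLH, against 99.5, 332 and 103 CPM in control. Monocyte and macrophage markers summed to between 52.3 and 81.1 CPM with TNP-KLH, against 59.5 to 93.7 CPM in control, and neutrophil markers to between 768 and 954 CPM with TNP-KLH, against 745 to 802 CPM in control. Endothelial and stromal markers lay between 47.0 and 86.4 CPM with TNP-KLH, against 57.6 to 151 CPM in control, and muscle markers, mainly cardiac actin, between 559 and 742 CPM with TNP-KLH, against 634 to 735 CPM in control. Both libraries numbered 2 thus held the most erythrocyte, thrombocyte and T cell RNA of their group, and in each same-numbered pair the erythrocyte and thrombocyte sums were lower with TNP-KLH. Of the 28 erythrocyte markers kept, 15 were lower with TNP-KLH in all 3 pairs, as were 8 of 11 thrombocyte, 7 of 26 T and NK cell, 5 of 16 monocyte and 8 of 39 endothelial and stromal markers. In the same order, 1, 0, 2, 1 and 1 markers of these lists were higher in all 3 pairs. None of these 5 lists had a member without reads in all 6 libraries. Of 37 B cell markers, 9 were lower and 10 higher in all 3 pairs. The share of all genes lower in all 3 pairs was not counted, so these counts have no background beside them. The same check found no gene described as immunoglobulin tau. In bulk RNA, fewer cells of a type and less RNA per cell cannot be told apart, and the part of these other cells in the results was not tested. The counts without the libraries numbered 2, given with the calls, are no such test. The erythrocyte and thrombocyte sums were lower with TNP-KLH in pairs 1 and 3 too.

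**Figure D1:**
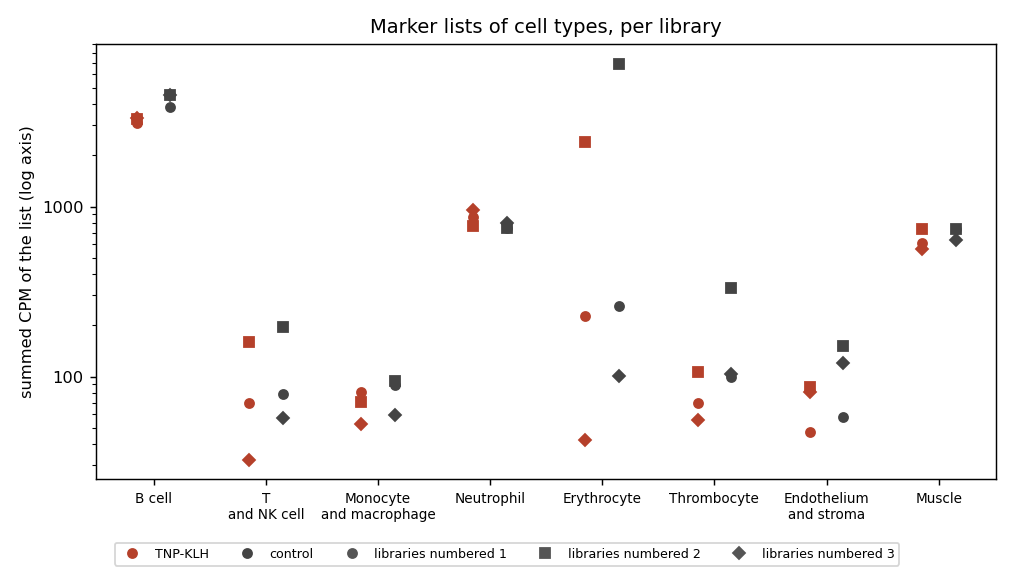
Summed CPM of the marker list of each cell type (x axis) in each TNP-KLH and control library on a log axis, 1 point per library, with the symbol giving the library number. The erythrocyte sums of the libraries numbered 2, 2382 CPM with TNP-KLH and 6917 CPM in control, stand far above those of the other libraries, while all B cell sums lie between 3102 and 4558 CPM.

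A pair of fits of edgeR's quasi-likelihood test was read side by side, both over all 9 libraries and with p adjusted by Benjamini-Hochberg over the 31691 genes at a threshold of 0.05. The unpaired fit compared the groups alone. The paired fit added the replicate number as a block, because same-numbered libraries deviated together from their group means. Without pairing, 241 genes were higher with TNP-KLH (0.760% of the genes tested) and 37 were lower (0.117%). With pairing, 1918 genes were higher (6.05%) and 1340 lower (4.23%), and these held all 241 and all 37. Of the paired calls, 1914 higher and 1335 lower genes moved the same way in all 3 pairs, 935 and 653 had a log2 fold change of at least 1 in size, and 1439 and 923 had TNP-KLH libraries entirely above or below the control libraries. Over all genes kept, 9.67% had all TNP-KLH libraries above all control libraries and 8.71% had them all below. In the text that follows, a gene is said to have risen or fallen where it passed the paired test, whether or not it passed the unpaired one. The function lists were small, and of the 31 counts of 1 to 5 members called in a direction with pairing, 29 moved by over 1.5 times when some single library was left out.

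**Figure D2:**
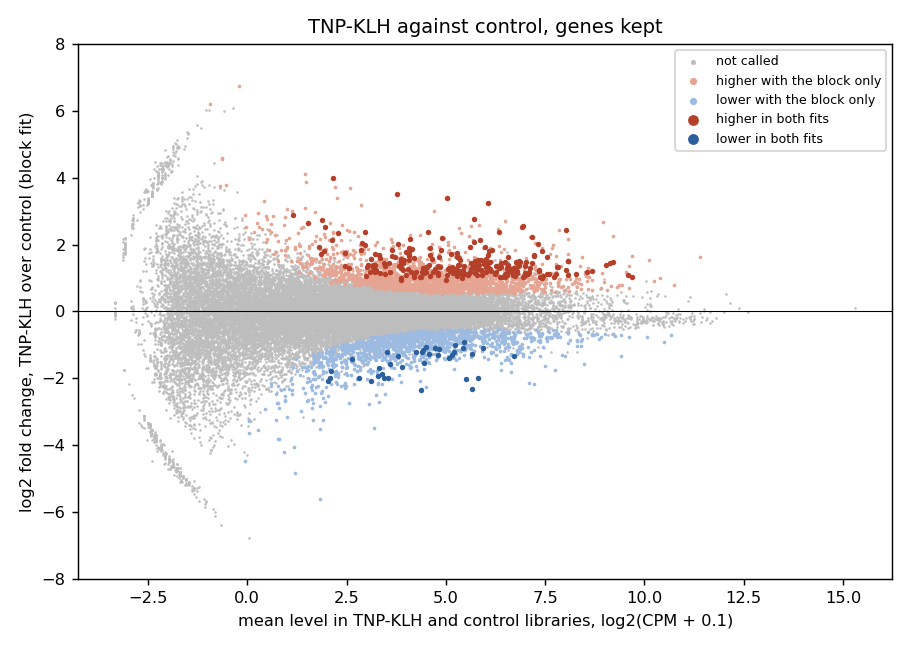
Log2 fold change of TNP-KLH over control in the paired fit (y axis) against the mean level in the 6 libraries (x axis, log2 scale), 1 point per gene kept. Dark points passed both fits (241 higher, 37 lower), pale points passed the paired fit alone, and grey points passed neither.

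The calls of the unpaired fit rested on the full set of libraries. Leaving out any 1 library reduced them to 0 in both directions, except that 1 higher gene was left without control 1, and 302 higher and 53 lower genes were called without TNP-LPS 1. The paired calls were less dependent on 1 library. They fell to 802 higher and 403 lower genes without TNP-KLH 2, to 1104 and 340 without TNP-KLH 3 and to 1500 and 500 without TNP-KLH 1, where only 2 TNP-KLH libraries were left. Without control 1 they came to 1850 and 767, and without control 3 to 1755 and 813, and the other single omissions gave between 1733 and 2554 higher and between 1058 and 2039 lower genes. A core of 733 higher and 242 lower genes passed the paired test in all 9 of these omissions. Without all 3 libraries numbered 2, which held the most erythrocyte RNA, the paired fit called 2181 genes higher and 1583 lower. Without the libraries numbered 3 it called 1020 and 373, and without those numbered 1 it called 1299 and 674.

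The 12 most increased genes that passed both fits held 3 copies of a cytokine receptor chain, a pair of transcription factors, TRAF1 and a nuclear co-regulator. The 12 most decreased held a toll-like receptor, the transcriptional inhibitor ID3 and enzymes of lipid handling. All 24 passed the paired test in each of the 9 omissions of 1 library. Their groups did not overlap, but this held for all 241 higher and all 37 lower genes of the unpaired fit. The lack of overlap therefore came with the choice of the 24 and is no separate support. The largest increase was in an interleukin-3 receptor class 2 beta chain-like gene (GSONMG00025612001), at 6.11, 9.83 and 8.72 CPM with TNP-KLH, against 0.405, 0.209 and 0.856 CPM in control. The copy with the highest level of this receptor, GSONMG00067873001, was at 75.8, 127 and 157 CPM with TNP-KLH, against 5.56, 19.6 and 15.7 CPM in control. In each of the 3 copies even the lowest TNP-KLH library stood far above the highest control library. For GSONMG00067873001 the log2 fold change came to 3.13 ± 0.54 (SE, adjusted p = 0.039 unpaired and 1.3e-06 paired), and those of GSONMG00025612001 and GSONMG00026522001 were 3.99 ± 0.54 and 3.46 ± 0.40 (adjusted p = 0.026 unpaired for both). This chain is the shared signalling subunit of the receptors for IL-3, IL-5 and GM-CSF in mammals. A further named copy, GSONMG00025611001, was called with pairing in 0 of the 9 single omissions.

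Both named copies of BATF, an AP-1 family factor needed for class switching in mouse B cells, moved together. GSONMG00032340001 was at 41, 76 and 61.3 CPM with TNP-KLH, against 4.75, 7.0 and 5.13 CPM in control (log2 fold change 3.40 ± 0.41, adjusted p = 0.026 unpaired and 9.0e-07 paired). The lower copy, GSONMG00014984001, was at 9.05, 13.8 and 15.4 CPM with TNP-KLH, against 1.11, 2.72 and 0.933 CPM in control (log2 fold change 3.18 ± 0.40, adjusted p = 0.067 unpaired and 0.00019 paired). In both copies the groups stood apart in every library. ETV6, an ETS family repressor, rose in both its named copies, and GSONMG00072479001 was at 134, 302 and 181 CPM with TNP-KLH, against 29.6, 57.3 and 22.5 CPM in control (log2 fold change 2.50 ± 0.42, adjusted p = 0.039 unpaired and 8.1e-06 paired). The strawberry notch homolog 2 (GSONMG00018039001), a nuclear co-regulator, was at 149.8, 197 and 291 CPM with TNP-KLH, against 27, 39.9 and 39 CPM in control (log2 fold change 2.59 ± 0.34), and syndecan-4 (GSONMG00071241001), a cell surface proteoglycan, at 354, 542 and 422 CPM with TNP-KLH, against 59.9, 91.7 and 91.3 CPM in control (log2 fold change 2.44 ± 0.33). These were among the steadiest increases, each with an unpaired adjusted p of 0.026. Histone deacetylase 7 (GSONMG00003440001), the phosphatase DUSP7 (GSONMG00025523001), monocarboxylate transporter 2 (GSONMG00072484001) and GRB10 (GSONMG00030065001), an adaptor of growth factor receptors, made up the rest of the 12, with log2 fold changes of 2.38, 2.77, 2.53 and 2.32.

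Genes of cytokines, their receptors and the JAK-STAT-SOCS chain behind them were called higher more often than lower. Of 101 cytokines and cytokine receptors kept, 16 were higher and 8 lower in the paired fit and 3 were higher in the unpaired fit, and the median log2 fold change was 0.187, against -0.035 over all genes. The paired calls were 15.8% and 7.92% of the list, against 6.05% and 4.23% over all genes. The 8 lower genes became 3 without TNP-KLH 1, 2 without TNP-KLH 2 or TNP-KLH 3 and 5 without control 2. Of 68 JAK, STAT and SOCS family genes, 16 were higher and 1 lower with pairing (23.5% and 1.47%). Without it 3 were higher, at a median of 0.346. With pairing, between 11 and 21 were higher when any 1 library was left out. The interleukin-21 receptor, which receives a T cell cytokine that drives B cell differentiation in mammals, was represented by GSONMG00034639001 at 110.2, 56.6 and 39 CPM with TNP-KLH, against 21.4, 14 and 5.91 CPM in control. A second well expressed copy, GSONMG00004927001, was at 68.6, 35.2 and 9.48 CPM with TNP-KLH, against 24.4, 14.9 and 2.1 CPM in control. The first copy was apart from control in every library, while the second overlapped it and was higher only within each pair. Their log2 fold changes with pairing were 2.36 ± 0.20 and 1.52 ± 0.25 (adjusted p = 8.1e-06 and 0.0011), and neither passed without pairing (adjusted p = 0.094 and 0.57). The 2 other named copies, GSONMG00004926001 and GSONMG00070420001, had at most 2.18 CPM in any of the 6 libraries and passed neither fit. Both named copies of the interleukin-31 receptor alpha chain rose in the same manner, and GSONMG00030507001 was at 103, 79.8 and 23.9 CPM with TNP-KLH, against 39.4, 13.8 and 8.63 CPM in control (paired log2 fold change 1.78 ± 0.22, adjusted p = 0.35 unpaired and 0.00014 paired). Of the 4 named copies of the interleukin-10 receptor beta chain, 3 passed neither fit, and GSONMG00080303001 was lower, at 4.04, 3.73 and 2.18 CPM with TNP-KLH, against 6.37, 7.11 and 7.62 CPM in control, in the paired fit (adjusted p = 0.033), a call that 5 of the 9 single omissions ended (TNP-KLH 1, 2 and 3, control 1 and control 3).

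Downstream of the receptors, the kinase JAK1 (GSONMG00063970001) was at 36.3, 48.4 and 51.8 CPM with TNP-KLH, against 4.55, 13.5 and 1.63 CPM in control. STAT3, the factor that IL-21 and IL-6 family cytokines activate, was at 199.9, 253 and 308 CPM with TNP-KLH, against 60.6, 92.2 and 38.8 CPM in control for GSONMG00061965001 and at 72.3, 81.1 and 130.5 CPM with TNP-KLH, against 20.02, 23.6 and 18.7 CPM in control for GSONMG00002706001. In all 3 genes every TNP-KLH library was above every control library. Log2 fold changes were 2.99 ± 0.39 for JAK1 with pairing (adjusted p = 0.064 unpaired and 0.00024 paired), 1.99 ± 0.37 for the first STAT3 copy (adjusted p = 0.046 unpaired and 0.00024 paired) and 2.19 ± 0.31 for the second (adjusted p = 0.029 unpaired and 5.3e-05 paired). SOCS3 (GSONMG00059210001), a target and inhibitor of STAT3 signalling, was at 519.9, 1655 and 368 CPM with TNP-KLH, against 56.7, 329 and 68.9 CPM in control. Its level differed widely between numbers, being highest in both libraries numbered 2, and it passed with pairing alone (log2 fold change 2.67 ± 0.23, adjusted p = 9.9e-06, against 0.32 unpaired). The kinase PIM1 (GSONMG00015719001), a STAT target, had the same form, at 77.5, 99.1 and 25.7 CPM with TNP-KLH, against 20.02, 16.5 and 2.8 CPM in control (paired log2 fold change 2.51 ± 0.22, adjusted p = 0.23 unpaired and 1.1e-05 paired). CISH (GSONMG00047007001), which inhibits STAT5 signalling, was at 4.25, 24.7 and 1.96 CPM with TNP-KLH, against 0.809, 1.78 and 1.32 CPM in control, where 1 TNP-KLH library stood above all others (paired log2 fold change 2.41 ± 0.46, adjusted p = 0.21 unpaired and 0.0029 paired), and this call was lost without TNP-KLH 2. Of its other named copies, GSONMG00074125001 was called with pairing in 8 of 9 single omissions, and GSONMG00060678001 and GSONMG00081701001 in 0. The other named SOCS3 copies, GSONMG00013248001 and GSONMG00013116001, were called in 6 and 1.

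**Figure D3:**
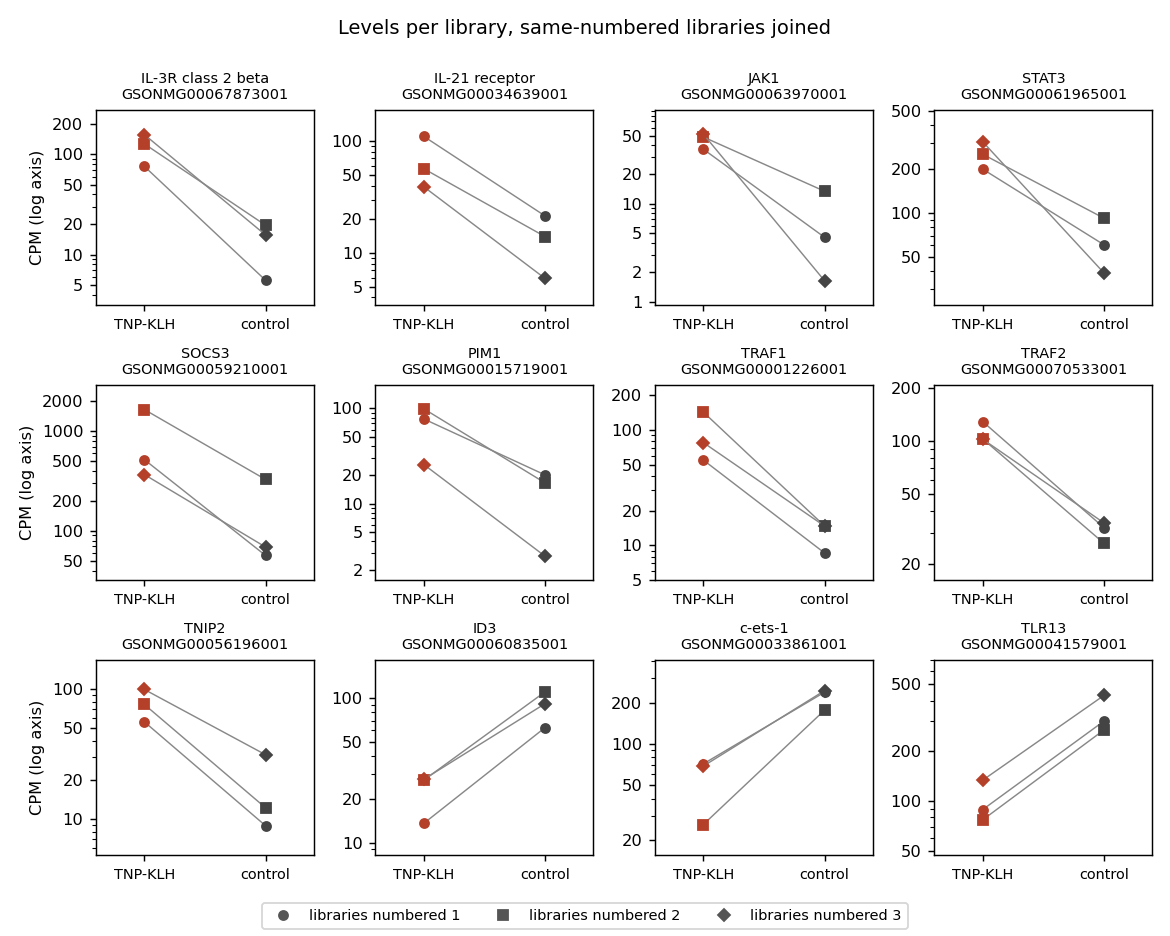
Levels of 12 genes in CPM on log axes, TNP-KLH libraries left and control libraries right, with lines joining same-numbered libraries and the symbol giving the number. The upper and middle rows and TNIP2 slope down to control in all 3 pairs, ID3, c-ets-1 and TLR13 slope up to it, and in none of the 12 do the groups overlap. The 12 were picked from the named genes, and other genes that rose, such as TNFAIP3 and Blimp-1, overlapped between groups. The lack of overlap is therefore no separate support. Over all genes kept, 9.67% had all TNP-KLH libraries above all control libraries and 8.71% had them all below.

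Genes called in the TNF receptor branch were mainly higher, among them ligand, receptor and adaptor genes. Of 70 TNF ligands, receptors and TRAFs, 15 were higher and 2 lower with pairing (21.4% and 2.86%, against 6.05% and 4.23% over all genes). Without it 4 were higher, at a median log2 fold change of 0.378. The 15 became 8 without TNP-KLH 2. TRAF1 (GSONMG00001226001), which sits on activated TNF receptors and is itself an NF-kB target, was at 54.9, 143 and 77.7 CPM with TNP-KLH, against 8.6, 14.7 and 14.7 CPM in control. TRAF2 (GSONMG00070533001), which links these receptors to NF-kB and kinase cascades, was at 129, 103 and 102 CPM with TNP-KLH, against 32.1, 26.1 and 34.1 CPM in control. Both groups were tight for TRAF2, and for both genes the lowest TNP-KLH library was well above the highest control library. Their log2 fold changes were 2.85 ± 0.52 (adjusted p = 0.045 unpaired and 9.2e-06 paired) and 1.86 ± 0.25 (adjusted p = 0.026 unpaired and 7.7e-05 paired). Another TRAF2 copy, GSONMG00082435001, was at 3.82, 1.55 and 2.07 CPM with TNP-KLH, against 10.8, 1.36 and 5.13 CPM in control and passed neither fit (paired log2 fold change -0.99 ± 0.39, adjusted p = 0.54 unpaired and 0.13 paired), but was called lower with pairing without control 2 and without all libraries numbered 2 (adjusted p = 0.0027). A pair of TRAF3 copies, GSONMG00068560001 and GSONMG00068562001, rose by 1.73 and 1.88 on the log2 scale in both fits, and another, GSONMG00004333001, had 0.82 ± 0.19 in the paired fit alone (adjusted p = 0.0099, lost without TNP-KLH 1 or TNP-KLH 2). Of the receptors, 4-1BB (TNF receptor superfamily member 9), a costimulatory receptor, rose with pairing in GSONMG00050654001 (21, 20.8 and 4.36 CPM with TNP-KLH, against 4.25, 6.06 and 0.856 CPM in control) and GSONMG00057532001 (13.8, 21.8 and 23.4 CPM with TNP-KLH, against 2.93, 1.15 and 11.4 CPM in control), with adjusted p of 0.00043 and 0.0026 paired and 0.26 and 0.26 unpaired. Another named copy, GSONMG00055325001, was at 2.4, 4.82 and 0.545 CPM with TNP-KLH, against 1.31, 9.72 and 0 CPM in control and passed neither fit. CD40, the receptor for T cell help, passed neither fit in any of its 4 named copies. Its most abundant copy, GSONMG00012579001, was at 557, 786 and 484 CPM with TNP-KLH, against 316, 628 and 398 CPM in control, where the groups overlapped but each pair was higher with TNP-KLH (paired log2 fold change 0.45 ± 0.23, adjusted p = 0.65 unpaired and 0.28 paired). This copy was called higher in the paired fit of the 6 TNP-KLH and control libraries alone (adjusted p = 0.0345) and in that without TNP-LPS 1. TNF itself (GSONMG00010221001) was at 32.2, 54.6 and 27.4 CPM with TNP-KLH, against 8.6, 14.8 and 7.93 CPM in control (paired log2 fold change 1.87 ± 0.22, adjusted p = 0.1 unpaired and 0.00012 paired).

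The 4 NF-kB pathway genes with the smallest paired p encode inhibitors of the pathway or relatives of these inhibitors. Of 79 genes kept, 21 were higher and 2 lower with pairing (26.6% and 2.53%, against 6.05% and 4.23% over all genes). None passed without it (unpaired unadjusted p under 0.05 in 13 higher and 3 lower, unpaired DESeq2 calls 7 and 0). The 21 became 10 without TNP-KLH 2 and 13 without TNP-KLH 3. TNIP2 (GSONMG00056196001), which works with the ubiquitin-editing inhibitor TNFAIP3, was at 56.2, 76.4 and 99.7 CPM with TNP-KLH, against 8.9, 12.2 and 31.3 CPM in control. TNFAIP3 (GSONMG00013822001) was at 84.3, 145 and 195 CPM with TNP-KLH, against 33.1, 39.5 and 109.6 CPM in control, and the NF-kB inhibitor alpha (GSONMG00016793001) at 462, 1888 and 1301 CPM with TNP-KLH, against 107, 722 and 447 CPM in control. TNIP2 was apart from control in every library, whereas the other genes overlapped between groups and were higher within each pair, by 1.34 and 1.66 on the log2 scale. Paired adjusted p was 0.00012, 0.00058 and 0.00031 for the 3 genes. BCL3 (GSONMG00011815001), an atypical member of the inhibitor family that acts in the nucleus, was at 22.9, 31.3 and 5.67 CPM with TNP-KLH, against 9.3, 6.06 and 0.856 CPM in control (paired log2 fold change 1.97 ± 0.26, adjusted p = 0.00028).

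Chemokines and interferon-induced genes were called mainly in the upward direction. Of 55 chemokines and chemokine receptors, 7 were higher and 3 lower with pairing and none passed without it (unpaired unadjusted p under 0.05 in 5 higher and 3 lower, unpaired DESeq2 calls 2 and 0), and the 7 became 4 without TNP-KLH 2 and 11 without control 2. With all libraries the paired calls were 12.7% and 5.45% of the list, against 6.05% and 4.23% over all genes. CCL4 (GSONMG00080018001), which attracts T cells and monocytes, was at 1252, 2523 and 1175 CPM with TNP-KLH, against 339, 914 and 476 CPM in control, with no overlap (paired log2 fold change 1.53 ± 0.24, adjusted p = 0.25 unpaired and 0.00082 paired). A CXCL11-like chemokine (GSONMG00058131001) and 1 copy of its receptor CXCR3 (GSONMG00064385001) rose by 1.58 and 2.03 in the paired fit (adjusted p = 0.00017 and 0.00087, against 0.61 and 0.18 unpaired). Of the other named copies, 3 of CXCL11 and 2 of CXCR3 passed neither fit. A copy of interleukin-1 beta, an inflammatory cytokine, was low, and this copy (GSONMG00003908001) was at 1.2, 6.73 and 3.82 CPM with TNP-KLH, against 0.506, 1.15 and 0.545 CPM in control (paired log2 fold change 2.35 ± 0.34, adjusted p = 0.17 unpaired and 0.00053 paired). It was called with pairing in all 9 single omissions, as was GSONMG00037660001. The copies GSONMG00016453001 and GSONMG00005489001 were called in 6 and 2 of them. Of 89 interferon-induced genes and interferon regulatory factors, 30 were higher and 2 lower with pairing (33.7% and 2.25%). Without it 1 was higher, at a median log2 fold change of 0.577. The 30 became 18 without TNP-KLH 2 and 46 without control 2. Interferon-induced protein 44-like GSONMG00031189001 was at 566, 621 and 349 CPM with TNP-KLH, against 193, 226 and 97.1 CPM in control, and the guanylate-binding protein 1-like gene that passed both fits, GSONMG00048182001, at 28, 26.6 and 20.4 CPM with TNP-KLH, against 10.4, 8.99 and 5.13 CPM in control. Both were apart from control in every library, with log2 fold changes of 1.62 ± 0.22 with pairing (adjusted p = 0.16 unpaired and 0.00026 paired) and 1.61 ± 0.30 (adjusted p = 0.047 unpaired and 0.00021 paired). Another interferon-induced protein 44-like copy, GSONMG00002732001, was at 258, 6.37 and 10.03 CPM with TNP-KLH, against 291, 2.72 and 0.389 CPM in control and passed neither fit.

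Genes of antigen presentation and costimulation followed the same direction. Of 90 kept, 20 were higher and 2 lower with pairing (22.2% and 2.22%, against 6.05% and 4.23% over all genes). Without it 1 was higher, at a median log2 fold change of 0.232. The 20 became 7 without TNP-KLH 2 and 12 without TNP-KLH 3. Tapasin (GSONMG00001306001), which loads peptides onto MHC class I, was at 500.2, 614 and 285 CPM with TNP-KLH, against 244, 265 and 83.2 CPM in control, and pro-cathepsin H (GSONMG00000945001), a lysosomal protease, at 153, 161 and 130.1 CPM with TNP-KLH, against 80.3, 73.1 and 39.7 CPM in control. Both rose in every pair without overlap between groups (paired log2 fold changes 1.34 ± 0.24 and 1.26 ± 0.19, adjusted p = 0.002 and 0.00069 paired, 0.36 and 0.11 unpaired). The peptide transporter TAP2 (GSONMG00001312001) overlapped between groups, at 46, 35.1 and 9.7 CPM with TNP-KLH, against 24.1, 11.2 and 2.96 CPM in control, but was higher in each pair (paired log2 fold change 1.42 ± 0.24, adjusted p = 0.62 unpaired and 0.0015 paired). The activation marker CD83 (GSONMG00012647001) rose by 1.29 ± 0.20 with pairing (adjusted p = 0.0497 unpaired and 0.00081 paired). The oxidase subunit gene neutrophil cytosol factor 2 (GSONMG00073143001), which phagocytic cells and B cells of mammals use, rose in both fits, at 124, 173 and 191 CPM with TNP-KLH, against 63.3, 54.1 and 68.5 CPM in control (log2 fold change 1.39 ± 0.25, adjusted p = 0.043 unpaired and 0.0004 paired). This gene is counted here among the 6 neutrophil markers, of which 1 was called higher and 1 lower with pairing. Which cells its reads came from was not tested.

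Transcription factors of the B cell and plasma cell programmes changed in both directions. Of 65 kept, 11 were higher and 10 lower with pairing and 2 were higher without it. The paired calls were 16.9% and 15.4% of the list, against 6.05% and 4.23% over all genes. Blimp-1 (PR domain zinc finger protein 1, GSONMG00019730001), the driver of plasma cell differentiation in mammals, was at 42.6, 56 and 2.62 CPM with TNP-KLH, against 5.56, 14.4 and 0.70 CPM in control. The libraries numbered 3 held little of it in either group, so the groups overlapped, and each pair was higher with TNP-KLH (paired log2 fold change 2.29 ± 0.29, adjusted p = 0.52 unpaired and 0.0002 paired). In contrast c-ets-1 (GSONMG00033861001), which holds back plasma cell formation in mice, was at 71.5, 25.8 and 68.9 CPM with TNP-KLH, against 238, 176 and 244 CPM in control and fell by 2.14 with pairing (SE 0.25, adjusted p = 0.13 unpaired and 0.0001 paired). The inhibitor of DNA binding ID3 (GSONMG00060835001), which blocks E proteins, was at 13.6, 27.1 and 27.5 CPM with TNP-KLH, against 62.5, 110.5 and 91.5 CPM in control and fell in both fits (log2 fold change -1.95 ± 0.34, adjusted p = 0.04 unpaired and 2.4e-05 paired). The 11 increases became 5 without TNP-KLH 2, and the 10 decreases 6 without TNP-KLH 2 and 4 without TNP-KLH 1 or TNP-KLH 3. Hepatic leukemia factor (GSONMG00062257001), a clock-related factor of quiescent blood progenitors, also fell, at 7.74, 4.0 and 11.2 CPM with TNP-KLH, against 43.4, 14.3 and 41.4 CPM in control (paired log2 fold change -2.08 ± 0.22, adjusted p = 0.11 unpaired and 5.4e-05 paired).

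Copies of Myc rose, and calls among Krueppel-like and forkhead factors were few. Of 14 genes of Myc and its partners, 3 were higher and 1 lower with pairing (21.4% and 7.14%) and 1 was higher without it. The Myc-2-like copy GSONMG00066548001 was at 117, 122 and 68.2 CPM with TNP-KLH, against 30.3, 37.4 and 25.4 CPM in control and the more abundant Myc copy GSONMG00068469001 at 315, 486 and 199 CPM with TNP-KLH, against 89.9, 133 and 79.8 CPM in control, and in both the lowest TNP-KLH library lay above the highest control library. Their log2 fold changes were 1.72 ± 0.27 (adjusted p = 0.036 unpaired and 7.0e-05 paired) and 1.67 ± 0.18 with pairing (adjusted p = 0.073 unpaired and 7.3e-05 paired). Another Myc-2-like copy, GSONMG00070347001, was called with pairing in 8 of the 9 single omissions, the call being lost without TNP-KLH 2. Its log2 fold change lay between 0.683 and 1.03 over these omissions. The N-myc-like copy GSONMG00017010001 passed neither fit, at 9.05, 7.92 and 4.25 CPM with TNP-KLH, against 11.2, 10.7 and 3.81 CPM in control. Of 91 Krueppel-like and forkhead factors, 1 was higher and 6 lower (6.59%) with pairing and none passed without it (unpaired unadjusted p under 0.05 in 1 higher and 2 lower, unpaired DESeq2 calls 1 and 0). KLF2 (GSONMG00072563001), which keeps mammalian lymphocytes at rest, was at 293, 1242 and 982 CPM with TNP-KLH, against 679.6, 1778 and 1421 CPM in control and differed more between numbers than between groups (paired log2 fold change -0.76 ± 0.20, adjusted p = 0.76 unpaired and 0.022 paired). That call was lost without any 1 of the TNP-KLH libraries and without control 1, while a smaller copy, GSONMG00075682001, kept its paired call in all 9 omissions (log2 fold change -1.19 ± 0.18). Of the 6 decreases, 1 was left without TNP-KLH 1, TNP-KLH 2, TNP-KLH 3 or control 1, and 11 were called without TNP-LPS 2. Among 58 immediate early and AP-1 genes, 6 were higher and 8 lower with pairing, with Fra-1 (GSONMG00017521001) at 75.1, 118 and 90.2 CPM with TNP-KLH, against 12.4, 38 and 5.76 CPM in control (paired log2 fold change 2.59 ± 0.46, adjusted p = 0.24 unpaired and 0.0019 paired). These 8 decreases became 1 without TNP-KLH 1 or TNP-KLH 3, 3 without TNP-KLH 2, 2 without control 1 and 4 without control 3. With all libraries 10.3% of the immediate early list was higher and 13.8% lower, against 6.05% and 4.23% over all genes.

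Signalling chains of the antigen receptor fell within pairs, while 1 of the immunoglobulin chains was called. Of 58 B cell receptor signalling genes, 2 were higher and 7 lower with pairing and none passed without it (unpaired unadjusted p under 0.05 in 0 higher and 9 lower, unpaired DESeq2 calls 0 and 3), at a median log2 fold change of -0.279 unpaired and -0.200 paired. With pairing, 3.45% of the list was higher and 12.1% lower, against 6.05% and 4.23% over all genes. The median log2 difference was 0.061, -0.074 and -0.129 in pairs 1, 2 and 3. The 7 included 3 CD79 chains. The CD79 alpha chain GSONMG00053375001 was at 236, 423 and 346 CPM with TNP-KLH, against 479, 642 and 652 CPM in control, the second alpha copy GSONMG00019605001 at 99.3, 183 and 129.7 CPM with TNP-KLH, against 214, 253 and 252 CPM in control, and the beta chain GSONMG00069455001 at 98, 90.3 and 114 CPM with TNP-KLH, against 154, 146 and 189 CPM in control. In all 3 the groups were apart in every library, and the paired log2 fold changes were -0.84 ± 0.19, -0.84 ± 0.18 and -0.69 ± 0.17 (adjusted p = 0.0081, 0.0065 and 0.013). The kinase Lyn (GSONMG00028678001) fell by 0.81 within pairs (SE 0.17, adjusted p = 0.0058), at 65.9, 111 and 134 CPM with TNP-KLH, against 128, 179 and 227 CPM in control. These decreases were of modest size and depended on single libraries, since the count of 7 became 0 without TNP-KLH 1 or TNP-KLH 3, 2 without TNP-KLH 2 and 3 without control 1, and 11 without TNP-LPS 2. Summed over the list of B cell markers, which shares the CD79 chains, the level was below control in each pair, with 4 of 37 markers lower and none higher, while the median log2 fold change of these markers was 0.149 with pairing. Of 60 immunoglobulin chains, 1 passed the paired fit, a lambda light chain (GSONMG00061862001) that was lower (log2 fold change -0.71 ± 0.21, adjusted p = 0.045) and was lost in 7 of the 9 single omissions, all except those of TNP-LPS 1 and TNP-LPS 2.

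Of 97 pattern recognition receptors, 4 were higher and 10 lower with pairing and 1 was lower without it, and the 10 became 6 without TNP-KLH 1 or TNP-KLH 2 and the 4 became 1 without TNP-KLH 2. With all libraries the paired calls were 4.12% and 10.3% of the list, against 6.05% and 4.23% over all genes. The decreases were led by toll-like receptor 13, a sensor of bacterial ribosomal RNA in mice. Its most abundant copy GSONMG00041579001 was at 89, 77.3 and 134 CPM with TNP-KLH, against 301, 267 and 429 CPM in control, GSONMG00021584001 at 34.5, 30.7 and 50.9 CPM with TNP-KLH, against 105, 132 and 145 CPM in control and GSONMG00054145001 at 14.3, 16.1 and 24 CPM with TNP-KLH, against 60.3, 84.4 and 70.8 CPM in control. All 3 were lower in every TNP-KLH library than in any control library, with log2 fold changes of -1.75 ± 0.18 and -1.76 ± 0.24 with pairing (adjusted p = 5.3e-05 and 0.00028) and -1.99 ± 0.37 in the unpaired fit (adjusted p = 0.046 unpaired and 7.7e-05 paired). Another copy, GSONMG00037155001, at 6.65, 7.64 and 1.53 CPM with TNP-KLH, against 2.22, 4.6 and 1.4 CPM in control, passed neither fit. NLRC3 (GSONMG00078396001), a cytoplasmic receptor that restrains innate signalling in mice, was at 28.2, 35.3 and 40.01 CPM with TNP-KLH, against 69.9, 101 and 98.7 CPM in control (paired log2 fold change -1.38 ± 0.20, adjusted p = 0.11 unpaired and 0.00043 paired).

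Among the function lists, genes that make ribosomes had the highest share of calls. Of 171 ribosome biogenesis genes, 110 were higher and 3 lower with pairing (64.3% and 1.75%, against 6.05% and 4.23% over all genes). Without it 33 were higher, at a median log2 fold change of 0.912. The 110 became 69 without TNP-KLH 2. In this list 119 genes had every TNP-KLH library above every control library and 10 had them all below, against 9.67% and 8.71% over all genes. Nucleolar protein 58 (GSONMG00065249001), a core protein of the particles that methylate ribosomal RNA, was at 56.9, 60.7 and 65 CPM with TNP-KLH, against 18, 19.5 and 25.7 CPM in control. Fibrillarin (GSONMG00011154001), their methyltransferase, was at 176, 181 and 156 CPM with TNP-KLH, against 69.2, 54 and 61.7 CPM in control, and the processing factor FTSJ3 (GSONMG00027394001) at 126, 122 and 122 CPM with TNP-KLH, against 47.5, 39.2 and 48.7 CPM in control. Levels within a group varied little for these genes, and all 3 passed both fits, with log2 fold changes of 1.53 ± 0.20, 1.47 ± 0.20 and 1.45 ± 0.19 (adjusted p = 0.026 unpaired for each). RNA polymerase I, which transcribes ribosomal RNA, rose in its largest subunits RPA1 (GSONMG00062475001, 89.1, 98.6 and 74.5 CPM with TNP-KLH, against 27.6, 32.4 and 30.1 CPM in control) and RPA2 (GSONMG00078075001, 53, 66.6 and 54.9 CPM with TNP-KLH, against 20.3, 22.5 and 24.2 CPM in control), by 1.54 and 1.38. Of 36 genes of RNA polymerases I and III, 15 were higher and 2 lower with pairing (41.7% and 5.56%). The 15 became 6 without TNP-KLH 2 and 9 without TNP-KLH 3. The polymerase III subunit RPC7-like gene GSONMG00061127001 went the other way, at 13.1, 14.1 and 17 CPM with TNP-KLH, against 31.2, 29.8 and 30.4 CPM in control (log2 fold change -1.05 ± 0.19, adjusted p = 0.043 unpaired and 0.0016 paired).

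Of 80 aminoacyl-tRNA synthetases, which charge tRNAs with their amino acids, 44 were higher and none lower with pairing. These were 55.0% and 0.0% of the list, against 6.05% and 4.23% over all genes. Without pairing 11 were higher, at a median log2 fold change of 0.717. The 44 became 26 without TNP-KLH 2 or TNP-KLH 3. Serine-tRNA ligase (GSONMG00033890001) was at 159, 133 and 132 CPM with TNP-KLH, against 64.1, 44.1 and 32.4 CPM in control, valine-tRNA ligase (GSONMG00028601001) at 111, 118 and 131 CPM with TNP-KLH, against 47.5, 48 and 47 CPM in control and arginine-tRNA ligase (GSONMG00081369001) at 106, 109 and 114 CPM with TNP-KLH, against 45.5, 41.9 and 40.3 CPM in control. All 3 passed both fits without overlap, with log2 fold changes of 1.60 ± 0.28, 1.34 ± 0.18 and 1.36 ± 0.19 (adjusted p = 0.04, 0.026 and 0.026 unpaired). Of 149 translation factors, 50 were higher and none lower with pairing (33.6% and 0.0%) and 9 were higher without it. The 50 became 29 without TNP-KLH 2 and 32 without TNP-KLH 3. The cap-binding complex helicase eIF4A-I (GSONMG00070300001) was at 352, 258 and 357 CPM with TNP-KLH, against 149.9, 99.4 and 134 CPM in control (log2 fold change 1.33 ± 0.24, adjusted p = 0.043 unpaired and 0.00022 paired). Of 112 RNA helicases, 32 were higher and 5 lower with pairing (28.6% and 4.46%), and the 32 became 18 without TNP-KLH 2. DDX5 (GSONMG00052587001), a helicase of splicing and ribosomal RNA processing, rose by 1.47 in the unpaired fit and DHX30 (GSONMG00048638001), which acts on mitochondrial RNA, by 2.18, both with an adjusted p of 0.026.

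Genes of protein folding and mitochondrial import were also called higher more often than lower. With pairing, 29.8% of chaperones, 38.3% of mitochondrial import genes and 27.1% of proteasome genes were higher, against 6.05% over all genes. The lower shares were 1.17%, 2.13% and 0.0%, against 4.23%. Of 171 chaperones, 51 were higher and 2 lower with pairing and 16 were higher without it, and the 51 became 21 without TNP-KLH 2 and 30 without TNP-KLH 3. All 4 named copies of heat shock 70 kDa protein 4, an exchange factor for HSP70, rose in both fits by between 1.78 and 2.00 on the log2 scale, and GSONMG00056342001 was at 46, 45.4 and 45.2 CPM with TNP-KLH, against 16.7, 11.5 and 11 CPM in control. Of 47 mitochondrial import genes, 18 were higher and 1 lower with pairing and 2 were higher without it, at a median of 0.620, and the 18 became 10 without TNP-KLH 2 and 11 without TNP-KLH 3. The import motor subunit TIM44 (GSONMG00008951001) was at 14.6, 13.7 and 14 CPM with TNP-KLH, against 4.05, 4.7 and 4.05 CPM in control (log2 fold change 1.72 ± 0.19, adjusted p = 0.026 unpaired and 0.00014 paired). Of 118 proteasome genes, 32 were higher with pairing and none passed without it (unpaired unadjusted p under 0.05 in 23 higher and 0 lower, unpaired DESeq2 calls 8 and 0), at a median of 0.469, but the 32 became 3 without TNP-KLH 2, 10 without TNP-KLH 3 and 13 without control 3. Proteasome activator subunit 3 (GSONMG00013072001) was at 27.7, 25.4 and 21.9 CPM with TNP-KLH, against 10.7, 11 and 11.8 CPM in control (paired log2 fold change 1.14 ± 0.19, adjusted p = 0.054 unpaired and 0.0014 paired). Among 200 endoplasmic reticulum and secretion genes 14 were higher and 2 lower (7.0% and 1.0%), the higher share being near that of all genes. The stress sensor ATF6 alpha (GSONMG00034364001) was the one that passed both fits, at 190.3, 273 and 248 CPM with TNP-KLH, against 60.3, 55 and 36.8 CPM in control (log2 fold change 2.23 ± 0.29, adjusted p = 0.026 unpaired and 5.3e-05 paired). The 14 became 9 without TNP-KLH 1, 4 without TNP-KLH 2, and 32 without control 2 or TNP-LPS 2.

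With all libraries, the structural proteins of the cytosolic ribosome and the respiratory chain were called at shares below those of all genes. Of 167 cytosolic ribosomal protein genes, 5 were higher and 1 lower with pairing (2.99% and 0.599%), at a median log2 fold change of -0.244. In this list 28 genes had every TNP-KLH library below every control library and 6 had them all above, against 8.71% and 9.67% over all genes. All 3 pairs were lower with TNP-KLH in 76 of the 167 genes and higher in 9. The share of all genes lower or higher in all 3 pairs was not counted, so these 2 counts have no background beside them. The 1 lower gene became 9 without TNP-LPS 1. The genes that rose included L3-like GSONMG00007235001 and L7-like 1 GSONMG00070696001, an assembly-linked relative, by 1.16 and 1.26 with pairing. The list median was -0.396, 0.014 and -0.382 in pairs 1, 2 and 3. Of 177 oxidative phosphorylation genes, 8 were higher and 1 lower with pairing (4.52% and 0.565%), the median was 0.086, and no gene was called higher without TNP-KLH 2 or without TNP-KLH 3. That count was 13 without control 2, 2 without control 3 and 4 without TNP-LPS 3. Cytochrome c1 (GSONMG00034123001), a subunit of complex III, was at 43, 51.5 and 41.9 CPM with TNP-KLH, against 29, 23.2 and 26.4 CPM in control (paired log2 fold change 0.80 ± 0.20, adjusted p = 0.014). Of the mitochondrial ribosomal proteins 17 of 104 were higher and none lower (16.3% and 0.0%, against 6.05% and 4.23% over all genes). The 17 became 2 without TNP-KLH 2, 4 without TNP-KLH 3 and 11 without control 1.

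**Figure D4:**
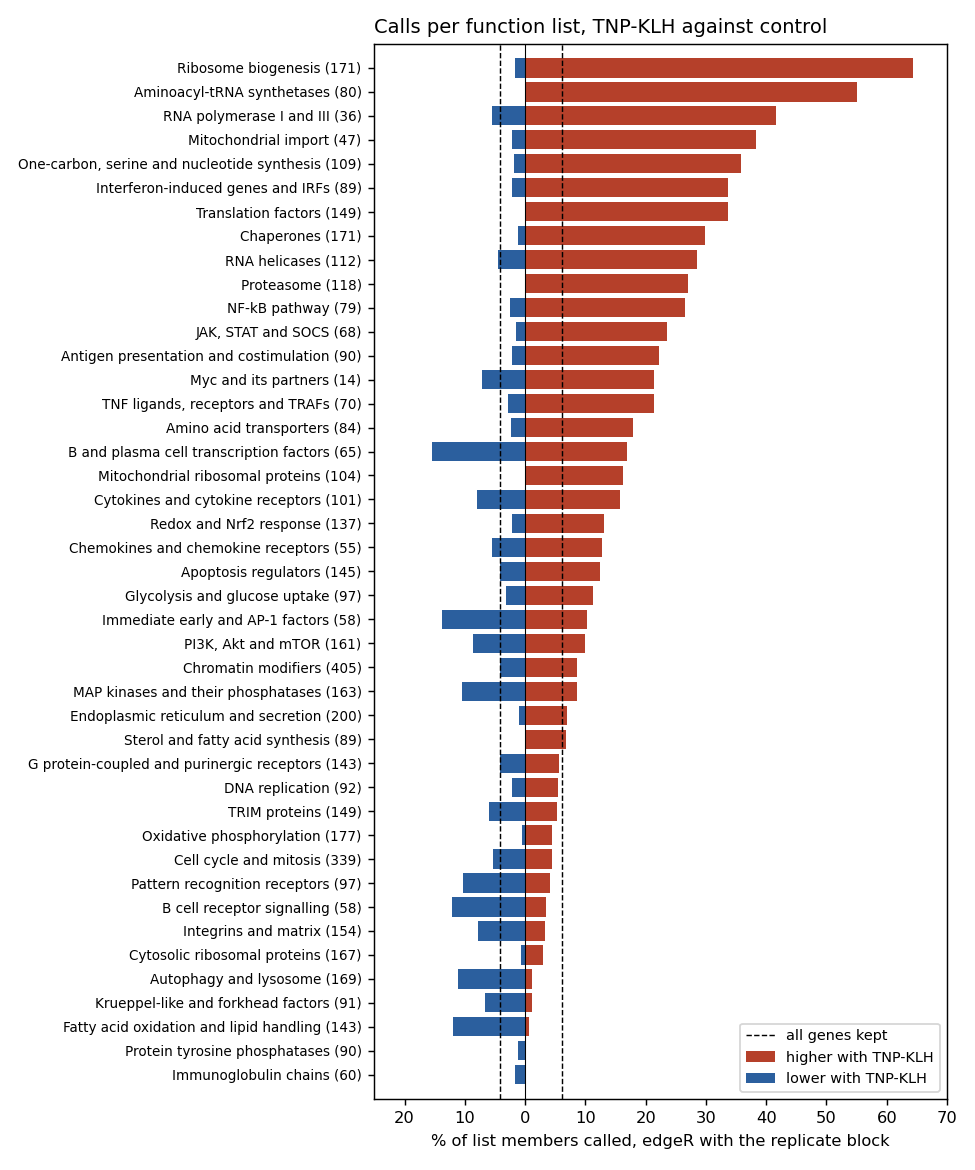
Share of the members of each function list (number kept in brackets) called higher (red, right) or lower (blue, left) with TNP-KLH in the paired edgeR fit, with dashed lines at the share over all genes kept, 6.05% higher and 4.23% lower. Ribosome biogenesis (64.3% higher) and aminoacyl-tRNA synthetases (55.0%) stand at the top, and B cell and plasma cell transcription factors have the highest share of lower genes (15.4%).

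Genes that make or take up building blocks for growth were also called higher more often than lower. Of 109 genes of one-carbon, serine and nucleotide synthesis, 39 were higher and 2 lower with pairing (35.8% and 1.83%). Without it 4 were higher, at a median log2 fold change of 0.644. The 39 became 16 without TNP-KLH 2 and 25 without TNP-KLH 1 or TNP-KLH 3. CTP synthase 1 (GSONMG00018874001) was at 78.6, 75.4 and 80.7 CPM with TNP-KLH, against 28, 35.1 and 30.5 CPM in control, and the mitochondrial folate enzyme methylenetetrahydrofolate dehydrogenase/cyclohydrolase (GSONMG00074922001) at 115, 126 and 152 CPM with TNP-KLH, against 54, 44.4 and 42.9 CPM in control. Their levels barely varied within a group, and both passed both fits (log2 fold changes 1.33 ± 0.20 and 1.48 ± 0.21, adjusted p = 0.032 and 0.031 unpaired). Of 84 amino acid transporters, 15 were higher and 2 lower with pairing (17.9% and 2.38%) and 4 were higher without it. With pairing, between 10 and 17 were higher when any 1 library was left out. The large neutral amino acid transporter LAT1 (GSONMG00080047001), which brings leucine into the cell, was at 77.1, 74.2 and 77.5 CPM with TNP-KLH, against 25, 13.6 and 22.9 CPM in control (log2 fold change 1.90 ± 0.26, adjusted p = 0.026 unpaired and 7.2e-05 paired). Glucose genes changed singly. Of 97 genes of glycolysis and glucose uptake 11 were higher and 3 lower with pairing, and hexokinase-2 (GSONMG00057336001), which traps glucose in the cell, was at 25.4, 26.5 and 23.2 CPM with TNP-KLH, against 8.6, 10.1 and 7.16 CPM in control (log2 fold change 1.54 ± 0.19, adjusted p = 0.026 unpaired and 0.0001 paired). The 11 became 5 without TNP-KLH 2 or TNP-KLH 3 and 7 without control 3. With all libraries 11.3% of the glucose genes were higher and 3.09% lower, against 6.05% and 4.23% over all genes. Of 89 sterol and fatty acid synthesis genes, 6 were higher (6.74%) and none lower, among them fatty acid synthase (GSONMG00062364001) and acetyl-CoA carboxylase (GSONMG00023694001), the enzymes that build fatty acids, by 1.04 and 1.17 with pairing (adjusted p = 0.002 and 0.00088, against 0.053 and 0.091 unpaired), and this count was 12 without control 2 and 10 without TNP-LPS 2.

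**Figure D5:**
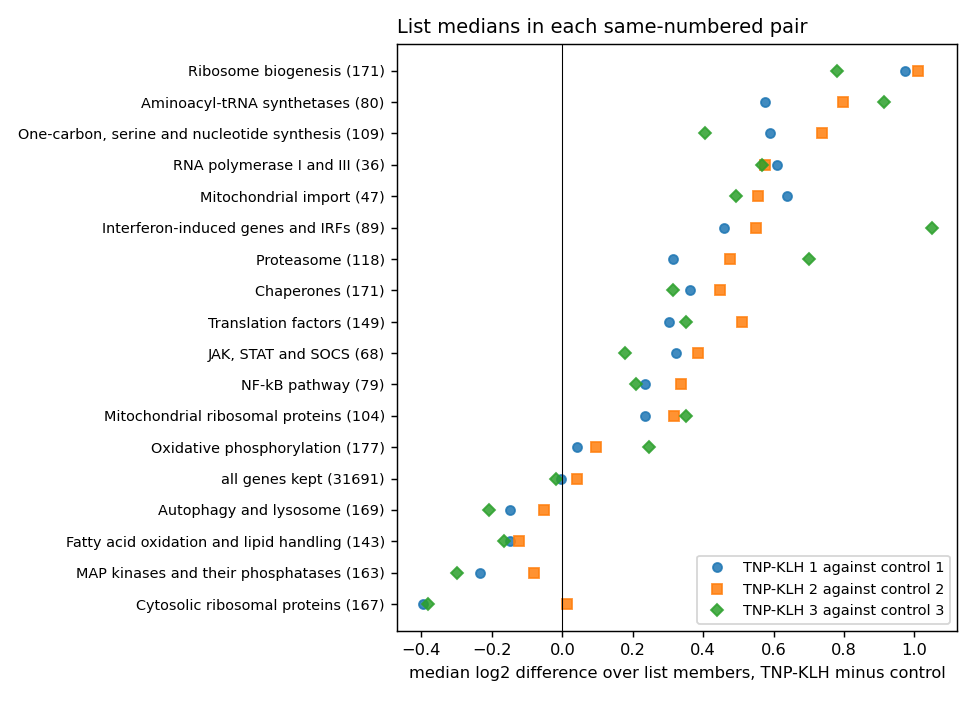
Median log2 difference of TNP-KLH minus control over the members of 17 function lists and all genes kept (number of genes in brackets), 1 point for each of the 3 same-numbered pairs. The medians of ribosome biogenesis were 0.972, 1.009 and 0.781 in pairs 1, 2 and 3, those of all genes -0.005, 0.042 and -0.018, and those of cytosolic ribosomal proteins -0.396, 0.014 and -0.382.

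Genes of lipid breakdown and of the lysosome were called lower more often than higher. Of 143 genes of fatty acid oxidation and lipid handling, 1 was higher and 17 lower with pairing. These were 0.699% and 11.9% of the list, against 6.05% and 4.23% over all genes. Without pairing 4 were lower, at a median log2 fold change of -0.234. The 17 became 9 without TNP-KLH 2 and 10 without TNP-KLH 3. PHOSPHO1 (GSONMG00072624001), which removes phosphate from phospholipid head groups, was at 24.6, 9.83 and 16.6 CPM with TNP-KLH, against 126, 55.3 and 71.6 CPM in control, and the octanoyl carnitine transferase of peroxisomes (GSONMG00042438001), which readies shortened fatty acids for export, at 1.64, 1.73 and 1.53 CPM with TNP-KLH, against 5.36, 6.58 and 7.93 CPM in control. Both fell in each pair without overlap (log2 fold changes -2.31 ± 0.38 and -2.01 ± 0.31, adjusted p = 0.038 and 0.036 unpaired). The monoacylglycerol lipase ABHD12 (GSONMG00064592001) was at 16.9, 17.7 and 19.1 CPM with TNP-KLH, against 31.5, 42 and 43.4 CPM in control (log2 fold change -1.12 ± 0.20, adjusted p = 0.04 unpaired and 0.0012 paired). Of 169 autophagy and lysosome genes, 2 were higher and 19 lower with pairing (1.18% and 11.2%) and 1 was lower without it. The one that passed both fits was the autophagosome protein GABARAP-like GSONMG00012216001, at 4.91, 4.55 and 4.36 CPM with TNP-KLH, against 15.9, 17.1 and 11.9 CPM in control (log2 fold change -1.70 ± 0.30, adjusted p = 0.04 unpaired and 0.00057 paired). A V-type proton ATPase a subunit (GSONMG00024573001), part of the pump that acidifies lysosomes, was at 92.9, 51.8 and 83.1 CPM with TNP-KLH, against 165, 118 and 141 CPM in control and fell by 0.93 within pairs (adjusted p = 0.0047, lost without TNP-KLH 2 or TNP-KLH 3). The 19 decreases became 8 without TNP-KLH 1, 3 without TNP-KLH 2, 5 without TNP-KLH 3, 10 without control 1 and 12 without control 3. Both TBC1D9B copies (GSONMG00024740001 and GSONMG00024741001), regulators of RAB proteins, were among the 12 most decreased genes, at log2 fold changes of -1.89 and -2.07.

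Cell division genes moved little by 24 h. Of 339 cell cycle and mitosis genes, 15 were higher and 18 lower with pairing (4.42% and 5.31%) and 2 were higher without it. Of 92 DNA replication genes 5 were higher and 2 lower (5.43% and 2.17%). The shares over all genes were 6.05% higher and 4.23% lower, so these counts lay near or below them. Cyclin G2 (GSONMG00014550001), which accompanies cell cycle arrest, was at 15.6, 11.1 and 19.5 CPM with TNP-KLH, against 28.5, 35.3 and 47.7 CPM in control and fell by 1.28 with pairing (adjusted p = 0.091 unpaired and 0.00058 paired). E2F4 (GSONMG00032813001), a regulator of entry into the cycle, rose in both fits, at 42.1, 38.2 and 30.6 CPM with TNP-KLH, against 15.7, 16.6 and 13.8 CPM in control (log2 fold change 1.27 ± 0.23, adjusted p = 0.043 unpaired and 0.00047 paired). The replicative helicase subunit MCM6 (GSONMG00008031001) was at 42.4, 79.5 and 41.1 CPM with TNP-KLH, against 17.7, 33.3 and 18 CPM in control, without overlap (paired log2 fold change 1.23 ± 0.18, adjusted p = 0.17 unpaired and 0.00052 paired). For the cell cycle list the counts became 5 higher and 5 lower without TNP-KLH 2, 6 and 5 without TNP-KLH 3, and 6, 9 and 8 lower without TNP-KLH 1, control 1 and control 3. For DNA replication the 5 became 1 without TNP-KLH 2 and 3 without TNP-KLH 3 or control 3.

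Signalling kinases gave mixed results. Of 163 MAP kinases and their phosphatases, 14 were higher and 17 lower with pairing and 1 was called in each direction without it, the lower one being MAP4K4 (GSONMG00077352001), a kinase upstream of JNK, at 20.9, 19 and 22 CPM with TNP-KLH, against 53.7, 45.1 and 53 CPM in control (log2 fold change -1.29 ± 0.17, adjusted p = 0.026 unpaired and 0.00023 paired). The 17 became between 5 and 10 without any 1 TNP-KLH library, control 1 or control 3 and 26 without TNP-LPS 2, and the 14 became 7 without TNP-KLH 2. With all libraries 8.59% of this list was higher and 10.4% lower, against 6.05% and 4.23% over all genes. Of 161 PI3K, Akt and mTOR genes 16 were higher and 14 lower, and 1 copy of Akt1 (GSONMG00019402001) rose, at 55.6, 51.3 and 46.4 CPM with TNP-KLH, against 19.6, 8.36 and 16.4 CPM in control (paired log2 fold change 1.77 ± 0.29, adjusted p = 0.057 unpaired and 0.001 paired), while its 3 other named copies passed neither fit. The regulatory subunits PI3K 5 (GSONMG00080703001) and PI3K 6 (GSONMG00059077001) moved in opposite directions, with paired log2 fold changes of 1.54 ± 0.24 and -2.13 ± 0.23 (adjusted p = 0.00079 and 7.2e-05, against 0.13 and 0.16 unpaired). For this list the 16 became 10 without TNP-KLH 2, and the 14 between 5 and 9 without any 1 TNP-KLH library, control 1 or control 3. With all libraries its shares were 9.94% higher and 8.7% lower.

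The TNP-LPS libraries, which share the fit, give a second stimulus for comparison, and the contrast shares its TNP-KLH libraries with the comparison above. TNP-LPS minus TNP-KLH called 2692 genes higher with TNP-LPS (8.49%) and 1883 lower (5.94%) with pairing, and 673 (2.12%) and 236 (0.745%) without it. Of the 171 ribosome biogenesis genes 133 stood above their TNP-KLH level and 1 below it, and of the 177 oxidative phosphorylation genes, of which 8 rose with TNP-KLH, 113 were higher and 1 lower. Of the 104 mitochondrial ribosomal proteins 72 were higher with TNP-LPS and none lower. In the other direction, 24 of 58 immediate early and AP-1 genes, 30 of 97 pattern recognition receptors, 22 of 58 B cell receptor signalling genes and 20 of 89 interferon genes stood below their TNP-KLH level, and 0, 2, 1 and 1 above it. Several of the strongest TNP-KLH increases were not called different between the stimuli. STAT3 (GSONMG00002706001) averaged 115 ± 34 CPM with TNP-LPS and 94.6 ± 31.4 CPM with TNP-KLH (SD, n = 3 each), and TRAF2 (GSONMG00070533001) averaged 102 ± 25.3 and 111 ± 15.2 CPM (log2 differences 0.27 ± 0.21 and -0.13 ± 0.20, SE). JAK1 (GSONMG00063970001) and the IL-3 receptor beta chain GSONMG00067873001 were lower with TNP-LPS, at 17.3 ± 2.62 CPM against 45.5 ± 8.13 CPM with TNP-KLH and at 71.8 ± 33.9 CPM against 119.9 ± 41.1 CPM with TNP-KLH (SD, n = 3 each, paired adjusted p = 0.013 and 0.0097). TRAF1 (GSONMG00001226001) and TNF (GSONMG00010221001) were higher with TNP-LPS, by 1.25 ± 0.21 and 1.41 ± 0.21 on the log2 scale (SE, paired adjusted p = 0.00098 and 0.00039).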

How the data were processed

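Raw counts per gene, as the authors deposited them, were used as the measured values. According to the study's methods the authors trimmed adaptors, mapped single-end reads of total RNA libraries to the Genoscope trout genome with TopHat at a minimum intron length of 50, and merged and counted reads with SAMtools and HTSeq. For the mapping and counting tools no version, and for the counting no strand setting, was found in the labels or methods. The deposited tables also hold normalized counts and, from the authors' DESeq comparisons, group means, fold changes, log2 fold changes, p and adjusted p, which were not used. The 3 tables hold the same counts. Protein descriptions came from the tables, and 0 gene identifiers matched the RefSeq table provided.

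A gene was kept where any of the 9 libraries held 5 reads or more. Counts were fitted with edgeR 4.0.16 (TMM factors, glmQLFit, glmQLFTest) in R 4.3.3 with limma 3.58.1, over 9 libraries in 3 groups, with Benjamini-Hochberg adjustment and a threshold of 0.05. Levels are CPM with TMM factors, and SE stands beside log2 fold changes. This SE was worked back from the test, as the absolute log2 fold change divided by the square root of its F statistic. Deviations from the group means (log2 CPM, prior count 2) correlated at 0.455 to 0.646 in the 3 same-numbered TNP-KLH and control pairs and at -0.406 to -0.148 between different numbers. The deviations of a group cancel out over its 3 libraries, so positive values for same numbers bring negative ones between different numbers. The negative values are thus no separate evidence of pairing. On the same-number values the numbers were treated as pairs, from the data and not from a stated design. A replicate block was fitted beside the unblocked design. Alternatives were DESeq2 1.42.0, other size factors, filters, the 6 libraries alone and omission of libraries. The 43 function lists and 8 marker lists with members were defined by words in the protein descriptions. The comparison, members and lists were chosen with earlier results of these data known, some excluded words were added after the descriptions were read, and no list was tested. Named genes were the 12 of largest change in each direction called in both fits with a mean of at least 5 CPM in the higher group and 3 concordant pairs, up to 4 per list by paired p, up to 8 per direction called with the block alone, up to 4 copies of each gene the study names for TNP-KLH, and called markers. Of 247 genes so named 214 were called with the block, and 167 of these in each of 9 omissions of 1 library. A withheld result among the named genes is not reported here. Tests were checked on simulated counts. Tables and plots used Python 3.11.15, pandas 2.3.3 and matplotlib 3.10.9.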

Additional observations from a re-analysis of the deposited data

How the results depend on the processing

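The counts of called genes depended on the replicate block and on single libraries. Against 241 higher and 37 lower genes without the block, the fit with the replicate block called 1918 and 1340, the 6 TNP-KLH and control libraries alone 0 and 0 without the block (3633 genes with an unadjusted p under 0.05) and 2585 and 2026 with it, DESeq2 986 and 422 without the block and 2019 and 1094 with it. The filterByExpr filter gave 65 lower genes without the block, and 1887 higher and 1313 lower genes with it. Robust empirical Bayes without the block gave 378 and 79. With 1 library left out, or all 3 libraries of 1 number, counts lay between 0 and 2554 higher and between 0 and 2039 lower genes. Without the block these omissions gave 0 calls in both directions except without control 1 (1 higher) and TNP-LPS 1 (302 and 53), and each of them still had between 2431 and 4195 genes at an unadjusted p under 0.05. With the block they gave 1500 and 500 without TNP-KLH 1, 802 and 403 without TNP-KLH 2, 1104 and 340 without TNP-KLH 3, 1850 and 767 without control 1, 2337 and 1058 without control 2, 1755 and 813 without control 3, 2238 and 1467 without TNP-LPS 1, 2554 and 2039 without TNP-LPS 2, 1733 and 1197 without TNP-LPS 3, and 1299 and 674, 2181 and 1583, and 1020 and 373 without the libraries numbered 1, 2 and 3. RLE and upper-quartile factors and no low-count filter kept both counts within 1.5 times, and other scalings moved the median log2 fold change of all genes by under 0.1. Among the named genes called in either fit, 5 unblocked estimates, none past the threshold, changed sign. Named genes called in neither fit were left out of this count, and some of them changed sign too. The CXCR3 copy GSONMG00014976001, for instance, lay between -0.869 and 1.36 over the omissions of 1 library with the block. The log2 fold change of GSONMG00009496001 (hemoglobin subunit beta-1-like) was 2.32 without control 2, and the log2 fold change of GSONMG00025225001 (KLF2) was 0.0663 without TNP-KLH 1 and 1.21 without control 2. The log2 fold change of GSONMG00030588001 (TRIM66-like) was 0.0908 without control 1, and the log2 fold change of GSONMG00066178001 (interferon-induced protein 44-like) was -0.201 without TNP-KLH 2. The cause of these differences was not tested, and omissions leave fewer samples. Depth limits genes of few reads, since the libraries held between 8080787 and 12164154 counts.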

Other observations

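Redox genes and regulators of cell death were called higher more often than lower in the paired edgeR fit, and none passed the unpaired fit (unadjusted p under 0.05 in 17 higher and 4 lower, and in 16 higher and 10 lower, unpaired DESeq2 calls 7 and 0, and 5 and 2). Of 137 redox and Nrf2 response genes, 18 were higher and 3 lower, at a median paired log2 fold change of 0.116, against -0.012 over all genes. These calls were 13.1% and 2.19% of the list, against 6.05% and 4.23% over all genes. The 18 became 10 without TNP-KLH 2, and single omissions gave between 1 and 8 lower genes. Glutathione reductase (GSONMG00016153001), which restores reduced glutathione, was at 523, 221 and 79.5 CPM with TNP-KLH, against 112, 71.5 and 23 CPM in control, overlapping between groups but higher in each pair (paired log2 fold change 1.88 ± 0.20, adjusted p = 0.31 unpaired and 7.0e-05 paired). KEAP1 (GSONMG00019673001), the sensor that holds Nrf2 in check, was at 98.9, 81.5 and 54 CPM with TNP-KLH, against 34, 27.9 and 18.3 CPM in control without overlap (paired log2 fold change 1.55 ± 0.16, adjusted p = 0.06 unpaired and 5.4e-05 paired). Of 145 apoptosis regulators, 18 were higher and 6 lower, at a median of 0.193, and the 18 became 3 without TNP-KLH 2 and 9 without TNP-KLH 3, and the 6 became 2 without TNP-KLH 1 or TNP-KLH 3. With all libraries 12.4% of these regulators were higher and 4.14% lower, the latter near the share of all genes. The necroptosis kinase RIPK3 (GSONMG00062440001) was at 82, 149 and 34.9 CPM with TNP-KLH, against 36.5, 49.5 and 11.7 CPM in control, higher in each pair (paired log2 fold change 1.46 ± 0.19, adjusted p = 0.45 unpaired and 0.00024 paired), and the death-associated protein-like gene GSONMG00069670001 was at 23.3, 17.2 and 21.3 CPM with TNP-KLH, against 52.5, 51.5 and 63.2 CPM in control (paired log2 fold change -1.46 ± 0.23, adjusted p = 0.091 unpaired and 0.00078 paired).

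Of 405 chromatin modifiers, 35 were higher and 17 lower with the block (8.64% and 4.2%, against 6.05% and 4.23% over all genes). Without the block 6 were higher, and the median paired log2 fold change was 0.004. The 35 became 22 without TNP-KLH 1, 15 without TNP-KLH 2 and 19 without TNP-KLH 3, and the 17 became between 5 and 8 without any 1 of these or control 1 and 26 without TNP-LPS 2. The H3 lysine-79 methyltransferase (GSONMG00019173001), a mark writer of transcribed genes, was at 74.9, 73.2 and 103 CPM with TNP-KLH, against 19.7, 13.8 and 26.3 CPM in control (log2 fold change 2.07 ± 0.32, adjusted p = 0.036 unpaired and 0.00012 paired), and lysine demethylase 2B (GSONMG00073630001) at 31.6, 48.7 and 51.5 CPM with TNP-KLH, against 87.2, 109.7 and 128 CPM in control (paired log2 fold change -1.31 ± 0.19, adjusted p = 0.13 unpaired and 0.00048 paired). Copies of P2Y purinoceptor 8, a receptor that confines B cells to germinal centres in humans, moved apart. GSONMG00009016001 was at 30.5, 70.3 and 31.7 CPM with TNP-KLH, against 9.61, 21 and 14 CPM in control, while GSONMG00017599001 was at 31.8, 51.9 and 75.2 CPM with TNP-KLH, against 113, 137 and 192 CPM in control, and neither copy overlapped between groups (paired log2 fold changes 1.53 ± 0.19 and -1.55 ± 0.24, adjusted p = 0.00019 and 0.00085 paired, 0.11 and 0.27 unpaired). Of the 143 G protein-coupled and purinergic receptor genes 8 were higher and 6 lower (5.59% and 4.2%), and of 154 integrin and matrix genes 5 and 12 (3.25% and 7.79%). Of 149 TRIM genes 8 were higher and 9 lower (5.37% and 6.04%), and of 90 protein tyrosine phosphatases 0 and 1 (0.0% and 1.11%, DESeq2 with the block 2 and 0). Over all genes the shares were 6.05% and 4.23%, so most of these counts lay near or below them. The median paired log2 fold changes were -0.066, -0.243, 0.015 and -0.061. Single omissions gave between 2 and 12, 2 and 18, 1 and 14, and 0 and 1 lower genes for these 4 lists, and between 5 and 10, 4 and 11, 1 and 21, and 0 and 2 higher genes.

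Among the called markers, 3 receptor genes of thrombocytes and endothelium were lower in all 3 pairs with no overlap between groups. Every TNP-KLH library was below every control library in 3 thrombocyte and 5 endothelial and stromal markers, and above it in 0 of either. The shares over all genes were 8.71% below and 9.67% above. Of the 11 thrombocyte markers 8 were lower and 0 higher in all 3 pairs, and of the 39 endothelial and stromal markers 8 and 1. The thrombopoietin receptor copies GSONMG00024376001 and GSONMG00048176001 were at 1.2, 1.91 and 2.94 CPM with TNP-KLH, against 6.98, 24.9 and 11.4 CPM in control, and at 2.18, 3.64 and 1.53 CPM with TNP-KLH, against 6.67, 34.5 and 7.39 CPM in control (paired log2 fold changes -2.78 ± 0.41 and -2.49 ± 0.41, adjusted p = 0.00059 and 0.0011 paired, 0.054 and 0.097 unpaired). The receptor kinase Tie-1 (GSONMG00002332001) was at 2.51, 1.09 and 4.25 CPM with TNP-KLH, against 10.7, 12.3 and 27.9 CPM in control (paired log2 fold change -2.71 ± 0.29, adjusted p = 0.063 unpaired and 6.4e-05 paired). The most abundant endothelial marker, von Willebrand factor-like GSONMG00000126001, was mixed between pairs and not called with pairing. It was at 2.07, 13.2 and 15.3 CPM with TNP-KLH, against 1.92, 18.9 and 13.9 CPM in control. With the block, 4 of 11 thrombocyte, 2 of 39 endothelial and stromal, 1 of 28 erythrocyte, 2 of 26 T and NK cell, 1 of 16 monocyte and 4 of 37 B cell markers were lower and none higher. In that order the lower shares were 36.4%, 5.13%, 3.57%, 7.69%, 6.25% and 10.8%, against 4.23% over all genes. The endothelial, erythrocyte and monocyte shares thus lay near that of all genes. Among the neutrophil markers 1 of 6 was called in each direction. None of 50 muscle markers was called by edgeR (unadjusted p under 0.05 in 0 higher and 4 lower, 0 calls by DESeq2 with the block). Single omissions gave between 0 and 20 lower erythrocyte markers (20 without TNP-LPS 2 and 16 without control 1) and between 2 and 8 lower thrombocyte markers. What part of the other results these cells had was not tested.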
